A study of Danio rerio with 9 samples.

Results

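Hox genes encode homeodomain transcription factors that lie in clusters and give cells their position along the head-to-tail axis. Their paralog group number runs from 1 to 13, and genes of low groups are in general expressed nearer the head than those of high groups. Genes are also sorted here by cluster letter (A to D) alone. A letter pools zebrafish a and b copies such as hoxb1a and hoxb1b, so it does not name a single chromosomal cluster. Meis and Pbx proteins are homeodomain factors of the TALE class that bind DNA together with Hox proteins. In vertebrate embryos, Hox genes of the lowest groups respond to retinoic acid and mark part of the progenitors of the heart, while those of groups 9 to 13 pattern the trunk, the tail and the paired fins.

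The genes described here are all rows of the count table whose symbol starts with hoxa, hoxb, hoxc, hoxd, meis or pbx followed by a digit, whatever the case of the letters. They were 59 of 32520 genes, namely 48 Hox, 5 Meis and 6 Pbx genes. Symbols are printed as the symbol table gives them, so many zebrafish genes carry a human-style name in capitals (HOXB4 is hoxb4a, MEIS1 is meis1b, MEIS2 is meis2a and PBX3 is pbx3b in RefSeq). A total of 10 rows share 5 symbols (HOXB5, HOXC6, HOXA11, HOXC12 and HOXC13) and are told apart by their identifier. The RefSeq symbols hoxa4a and hoxa10ap, a pseudogene, matched no row and are not analysed here.

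RNA was measured by sequencing of amplified cDNA, made from lysed tissue with a SMARTer Ultra Low Input kit per the labels. The larvae were AB zebrafish, Danio rerio, aged 60 hours after fertilisation, and every group carried the same pair of reporters, epi:eGFP and myl7:mRFP, the latter driven by a myosin promoter of heart muscle. The proepicardium (4 libraries), the transient cell cluster from which the epicardium forms, was compared with the heart tube (3 libraries) and the dorsal pericardium (2 libraries), each dissected by hand and pooled from at least 10 organs. The series text gives 3 proepicardium samples where the labels list 4, and all 4 were used. Nothing in the labels says that libraries of a tissue came from separate clutches, so p-values measure the spread between these libraries.

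Gene counts per library ran from 8882853 in proepicardium 4 to 19397355 in heart tube 1. Levels are given as CPM, in which counts are divided by TMM-adjusted library sizes, in the order of the library numbers, and a gene counts as detected in a tissue when each of its libraries holds more than 3 counts. That floor equals 0.150 to 0.331 CPM, and it covers counting error only, since the amplified reads carry no molecular identifiers. The red reporter row, named mCherry, held 3059 to 4042 counts in the heart tube libraries and 0 to 1 elsewhere. Heart muscle genes (7) summed to 41515 to 54343 CPM in the heart tube. Their sum was 81.6 to 305.5 CPM in the proepicardium and 17.0 to 49.4 CPM in the pericardium. The epicardial regulators were scarce in the libraries labelled proepicardium, with wt1a at 0.249 to 1.11 CPM, wt1b at 0.773 to 2.58 CPM and tcf21 at 2.49 to 7.49 CPM. wt1a had no read in the heart tube, and wt1b was higher in the proepicardium than there (log2 fold change 5.45 ± 1.32, adjusted p = 0.00941). At an adjusted p under 0.05, tcf21, tbx18 and aldh1a2 did not differ between these tissues, and podxl, hand2 and alcama were lower in the proepicardium. The sum of 8 epicardial or mesothelial genes, made up mostly of hand2, alcama and podxl in all tissues, was 128.7 to 350.4 CPM in the proepicardium, 1019 to 1434 CPM in the heart tube and 92.4 to 129.7 CPM in the pericardium. In the pericardium, wt1a stood at 0.0502 and 0 CPM, wt1b at 0.100 and 0.608 CPM and tcf21 at 1.35 and 0.348 CPM. Each of these values lay below every proepicardium library. The same held for tbx18, aldh1a2 and podxl, while hand2 and alcama overlapped. None of the tested genes of this list was called between proepicardium and pericardium. A sum of 8 epidermal genes, among them the keratins krt4 and krt5, stood at 45931, 45587, 11617 and 28827 CPM in the proepicardium, at 6351, 192.3 and 244.5 CPM in the heart tube and at 52988 and 73712 CPM in the pericardium. Epidermal transcripts were thus abundant in the proepicardium and the pericardium, and heart tube 1 held far more of them than the other heart tube libraries. In bulk tissue, fewer cells of a type and less RNA per cell cannot be told apart.

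The tissues differed in which Hox genes could be counted at all. In the proepicardium 20 Hox genes were detected, of which 16 belonged to paralog groups 1 to 5, 3 to groups 6 to 8 and 1 to groups 9 to 13. The highest group reached there was 10, through hoxa10b. In the pericardium 27 Hox genes were detected, with 13, 5 and 9 in the same blocks, up to group 13 through hoxa13b. The rule is stricter for the 4 proepicardium libraries than for the 2 pericardium libraries, and proepicardium 4 had the fewest gene counts of all. hoxa13b had 24, 55, 8 and 3 counts in the proepicardium and missed detection there through proepicardium 4 alone. So did HOXC9, HOXD9 and HOXD10 of the same block, while hoxa9b missed it through proepicardium 3 alone. The heart tube held only 6 by this rule, all of groups 1 to 5: hoxb1b, hoxa2b, HOXB2, HOXA3, HOXB3 and HOXB5 (ENSDARG00000013057). In its 3 libraries 26 Hox genes had at most 3 counts each, and 19 of these had none.

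The libraries also differed in how many Hox reads they held. The proepicardium libraries held 3618, 2601, 6136 and 1651 Hox counts, the heart tube libraries 1079, 189 and 256, and the pericardium libraries 3604 and 1971. More than 3 counts were found for 33, 31, 32 and 22 Hox genes in the proepicardium, for 19, 10 and 9 in the heart tube and for 34 and 28 in the pericardium. Heart tube 1 therefore stood above the other heart tube libraries in both measures. All 5 Meis genes were detected in every tissue, and 5 Pbx genes were detected in the proepicardium and the heart tube and 4 in the pericardium.

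No tissue reached detection for 19 genes. They were 18 Hox genes and pbx3a. The Hox genes among them were HOXA5, hoxb6b, HOXC6 (ENSDARG00000101954), hoxb8b, hoxa9a, HOXB9, hoxb10a, HOXC10, both HOXA11 rows, both HOXC12 rows, HOXD12, hoxa13a, HOXB13, both HOXC13 rows and hoxd13a. hoxb10a and the HOXC12 row ENSDARG00000070352 had no counts in any library. A few of the others rested on a single library: 79 of the 89 counts of hoxb6b lay in heart tube 1, 41 of the 42 counts of HOXB9 and 15 of the 20 counts of hoxd13a lay in proepicardium 3, and 7 of the 9 counts of pbx3a lay in proepicardium 4. Only HOXA5 of the 19 had enough reads to pass the filter on low counts and be tested between tissues. At this depth the levels of the others could not be compared.

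**Figure D1:**
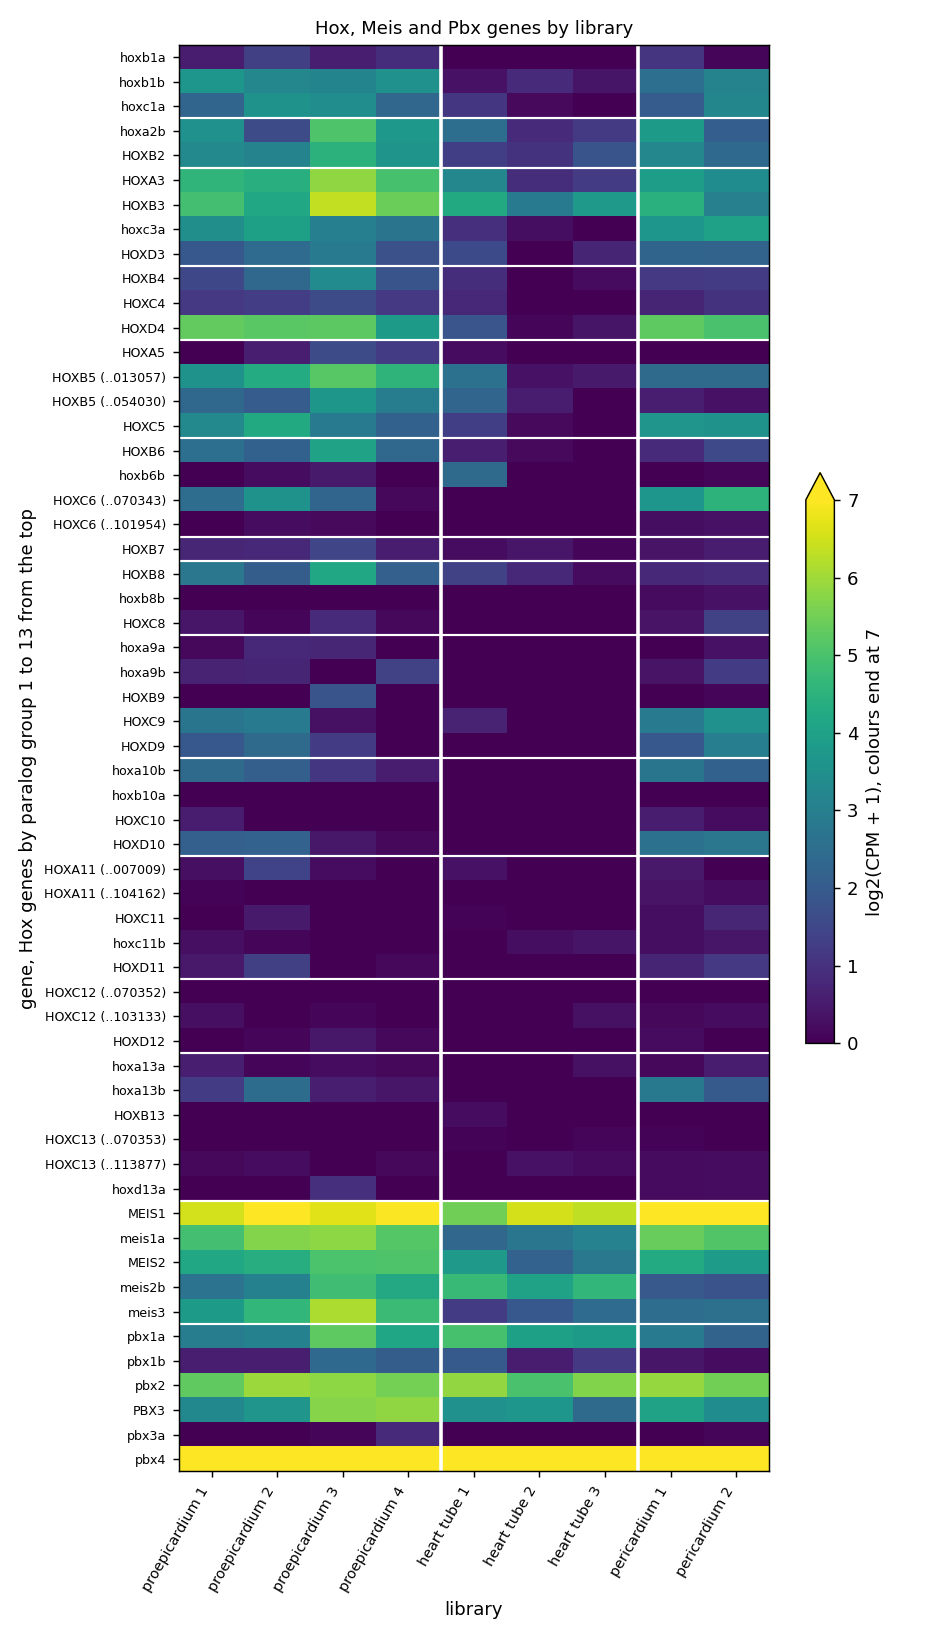
Level of 58 of the 59 genes (rows, Hox genes by paralog group 1 to 13, then Meis and Pbx genes) in each of the 9 libraries (columns), as log2(CPM + 1) with colours ending at 7. The heart tube columns are nearly empty below paralog group 5, the pericardium columns hold signal down to hoxa13b, and MEIS1 and pbx4 are bright in every library.

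Summed over genes, the Hox signal was several-fold larger outside the heart tube, and the excess was present in all 3 blocks of paralog groups. Groups 1 to 5 summed to 167.1, 169.6, 328.6 and 171.2 CPM in the proepicardium, to 51.9, 11.3 and 19.6 CPM in the heart tube and to 136.9 and 108.7 CPM in the pericardium. The means were 209.1 ± 79.7 CPM (SD, n = 4), 27.6 ± 21.4 CPM (SD, n = 3) and 122.8 ± 20.0 CPM (SD, n = 2). Every proepicardium library lay above every pericardium library, and every pericardium library above every heart tube library. The ratio of means was 7.58 for proepicardium over heart tube and 1.70 for proepicardium over pericardium. Without heart tube 1 the heart tube mean was 15.5 CPM, and without proepicardium 3 the proepicardium mean was 169.3 CPM.

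Groups 6 to 8 were much weaker and did not separate proepicardium from pericardium. They summed to 16.4, 18.8, 39.7 and 8.28 CPM in the proepicardium, to 6.64, 1.24 and 0.245 CPM in the heart tube and to 14.4 and 27.6 CPM in the pericardium, with means of 20.8 ± 13.4 CPM (SD, n = 4), 2.71 ± 3.44 CPM (SD, n = 3) and 21.0 ± 9.31 CPM (SD, n = 2). The heart tube mean was 0.745 CPM without heart tube 1, which held nearly all hoxb6b reads.

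Groups 9 to 13 had the reverse order between proepicardium and pericardium. They summed to 20.5, 27.5, 8.54 and 2.87 CPM in the proepicardium, to 1.16, 0.484 and 1.06 CPM in the heart tube and to 29.4 and 35.1 CPM in the pericardium. The means were 14.8 ± 11.2 CPM (SD, n = 4), 0.902 ± 0.365 CPM (SD, n = 3) and 32.3 ± 4.01 CPM (SD, n = 2), so that the proepicardium stood at 0.460 of the pericardium and the pericardium at 35.8 times the heart tube. Both pericardium libraries lay above all others. Within the proepicardium, libraries 1 and 2 lay well above libraries 3 and 4. The 16 construct rows, among them the red reporter, split these libraries in the opposite order. Their share was 0.000413%, 0.000321%, 0.00392% and 0.00376% of proepicardium 1 to 4. It was 0.000397% of pericardium 1, 0.000281% of pericardium 2 and 0.0214% to 0.0309% of the heart tube libraries. The red row held at most 1 count in each proepicardium library. The link between this split and the Hox sums was not tested.

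As a share of all Hox reads in a library, groups 9 to 13 made up 10.1% (Wilson 95% interval 9.12% to 11.1%) and 12.7% (11.5% to 14.1%) in proepicardium 1 and 2. The share was 2.27% (1.92% to 2.67%) and 1.57% (1.08% to 2.30%) in proepicardium 3 and 4. In the pericardium it was 16.3% (15.1% to 17.5%) and 20.5% (18.8% to 22.3%), above all proepicardium libraries. The heart tube shares of 1.95%, 3.70% and 5.08% rest on 21, 7 and 13 reads. The intervals treat reads as independent, which amplified reads without molecular identifiers need not be, and they do not cover the spread between libraries.

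By single paralog group, the ratio of proepicardium to pericardium means was 1.42, 1.85, 2.05, 1.02 and 2.41 for groups 1 to 5, 0.650, 2.48 and 4.01 for groups 6 to 8, and 0.475, 0.416, 0.579, 1.00 and 0.436 for groups 9 to 13. It was above 1 in groups 1, 2, 3 and 5 and near 1 in group 4. The group 4 means were 37.2 ± 13.9 CPM (SD, n = 4) in the proepicardium and 36.3 ± 3.96 CPM (SD, n = 2) in the pericardium. The ratio was at or below 1 in all of groups 9 to 13, where group 12 rests on a handful of reads. Group 10 had no read in any heart tube library, against 8.29, 6.89, 1.54 and 0.552 CPM in the proepicardium and 11.3 and 9.47 CPM in the pericardium. Set against 3 counts per heart tube library, the ratio was at least 21.0 for the proepicardium and at least 50.4 for the pericardium. These sums were described and not tested.

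**Figure D2:**
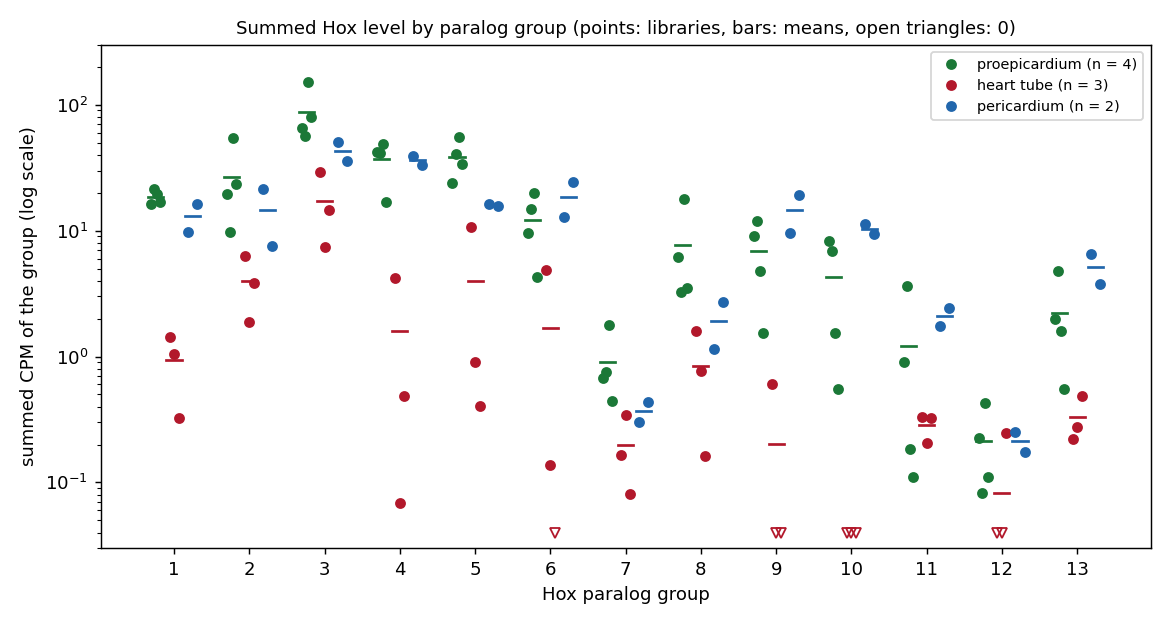
Summed CPM of the Hox genes of each paralog group (log scale) in the proepicardium (4 libraries), the heart tube (3) and the pericardium (2), with points for libraries, bars for means and open triangles for sums of 0. The heart tube lies lowest in mean in every group, and the pericardium mean lies above that of the proepicardium in groups 6, 9, 10, 11 and 13.

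Between proepicardium and heart tube, 25 of the 59 genes were higher in the proepicardium (edgeR quasi-likelihood test, Benjamini-Hochberg adjusted p under 0.05 over 17003 genes) and none was lower. They were 21 Hox, 3 Meis and 1 Pbx gene. Over all genes tested, 16.8% were called higher in the proepicardium and 12.7% higher in the heart tube. The filter on low counts passed 39 of the 59 genes, and 14 of them were not called. A gene that passes the filter only through its level in the proepicardium has to differ, so the count is read over all 59. In 25 genes the lowest proepicardium library exceeded the highest heart tube library, an arrangement found in 19.8% of all genes tested. Called were 12 of the 17 Hox genes of groups 1 to 5, 4 of the 8 of groups 6 to 8 and 5 of the 23 of groups 9 to 13, of which 7 passed the filter.

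Between heart tube and pericardium, 17 of the 59 genes were called, 16 higher in the pericardium (15 Hox genes and meis1a) and 1, meis2b, higher in the heart tube. Over all genes tested, 16.1% were called higher in the pericardium and 11.0% higher in the heart tube. In 32 genes the lower pericardium library exceeded every heart tube library, and 26 of these passed the filter, where the arrangement held for 32.9% of all genes tested. Called higher in the pericardium were 7 of 17 Hox genes of groups 1 to 5, 2 of 8 of groups 6 to 8 and 6 of 23 of groups 9 to 13. This count depends on the small pericardium group: it was 10 without pericardium 1, 10 without pericardium 2 and 11 without heart tube 2. Both comparisons use the same 3 heart tube libraries, so their results are given side by side for each gene below and are not independent of each other.

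In paralog group 1, hoxb1b, hoxc1a and hoxb1a were called higher in proepicardium than heart tube. hoxb1b (ENSDARG00000054033), which takes part in hindbrain segmentation in zebrafish, stood at 11.8, 8.46, 7.98 and 10.7 CPM in the proepicardium, at 0.276, 0.830 and 0.326 CPM in the heart tube and at 4.86 and 7.82 CPM in the pericardium. Its libraries did not overlap between any tissues, and the 4 proepicardium libraries were close together. The log2 fold change was 4.33 ± 0.54 for proepicardium over heart tube (adjusted p = 0.000173) and -3.71 ± 0.57 for heart tube over pericardium (adjusted p = 0.000751). hoxc1a (ENSDARG00000070337) stood at 3.89, 11.2, 9.89 and 3.98 CPM, at 1.16, 0.138 and 0 CPM and at 3.11 and 8.26 CPM in the same order of tissues. All heart tube libraries were below all others, with log2 fold changes of 3.95 ± 0.98 (adjusted p = 0.0109) and -3.60 ± 1.04 (adjusted p = 0.0243), the latter lost without heart tube 2 (0.0787) or pericardium 2 (0.201).

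Levels of hoxb1a were close to the floor. hoxb1a (ENSDARG00000008174), which sets the identity of a hindbrain segment in zebrafish, had 0.451, 1.49, 0.491 and 0.884 CPM in the proepicardium, no read in the heart tube, and 1.1 and 0.0869 CPM in the pericardium. Against 3 counts per heart tube library it was at least 4.03-fold higher in the proepicardium (adjusted p = 0.0162) and at least 2.89-fold higher in the pericardium (adjusted p = 0.0282). Pericardium 1 alone carried the pericardium level, and that call was lost without it (adjusted p = 0.369) and without heart tube 1, 2 or 3 (0.0533, 0.059 and 0.0544).

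Genes of groups 2 and 3 pattern the hindbrain and the pharyngeal arches, and 4 of the 6 were detected in the heart tube. HOXB2 (ENSDARG00000000175) stood at 8.80, 7.72, 21.7 and 11.4 CPM in the proepicardium, at 1.44, 1.04 and 2.53 CPM in the heart tube and at 8.48 and 4.26 CPM in the pericardium. The heart tube lay below both other tissues without overlap, with log2 fold changes of 2.90 ± 0.54 (adjusted p = 0.00213) for proepicardium over heart tube and -1.94 ± 0.58 (adjusted p = 0.0275) for heart tube over pericardium. The second call was lost without heart tube 1 (0.0715), heart tube 2 (0.0999), pericardium 1 (0.349) or pericardium 2 (0.0505). hoxa2b (ENSDARG00000023031), which specifies the second pharyngeal arch in zebrafish, stood at 10.7, 2.07, 32.9 and 12.3 CPM, at 4.81, 0.830 and 1.30 CPM and at 13 and 3.30 CPM. Proepicardium 2 overlapped with the heart tube, and the gene was not called in either comparison (adjusted p = 0.0585 and 0.228).

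HOXA3 (ENSDARG00000103862) stood at 22.7, 20.1, 55.9 and 30.3 CPM in the proepicardium, at 8.46, 0.899 and 1.39 CPM in the heart tube and at 13.9 and 9.56 CPM in the pericardium. The tissues did not overlap, and the log2 fold change over the heart tube was 3.15 ± 0.75 in the proepicardium (adjusted p = 0.00995, and 0.0525 without the filter on low counts), while heart tube and pericardium did not differ past the threshold (adjusted p = 0.146). HOXB3 (ENSDARG00000029263) had the most reads of group 3 in the heart tube, with 29.3, 17.3, 81.1 and 41.9 CPM, then 17.9, 6.36 and 12.5 CPM, then 20.7 and 7.30 CPM. Heart tube 1 exceeded proepicardium 2, and the log2 fold change of 1.79 ± 0.58 (adjusted p = 0.0381) was lost without proepicardium 3 (0.0939), proepicardium 4 (0.0756), heart tube 2 (0.135) or heart tube 3 (0.093), and without the filter (0.0853). hoxc3a (ENSDARG00000070339) stood at 10.1, 14.9, 7.12 and 5.52 CPM, at 0.940, 0.207 and 0 CPM and at 11.9 and 15.2 CPM. The heart tube was far below both, with log2 fold changes of 4.50 ± 0.81 (adjusted p = 0.00174) and -5.02 ± 0.87 (adjusted p = 0.00159). In RefSeq the spans of hoxb3a, hoxa3a, hoxc3a, hoxd3a and hoxb1b contain 3, 2, 5, 1 and 2 other Hox genes. Whether their exons overlap was not examined, so reads of these genes and of those inside them cannot be assigned with certainty.

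In groups 4 and 5, HOXD4 (ENSDARG00000059276) was well separated from the heart tube in both other tissues. It stood at 39.1, 35.7, 36.8 and 13.1 CPM in the proepicardium, at 2.60, 0.0691 and 0.326 CPM in the heart tube and at 37.2 and 31.0 CPM in the pericardium. Proepicardium 4 was the low library of its tissue but still above every heart tube library. The log2 fold changes were 4.89 ± 0.89 (adjusted p = 0.00253) for proepicardium over heart tube and -5.02 ± 0.94 (adjusted p = 0.00338) for heart tube over pericardium. HOXC5 (ENSDARG00000070340) stood at 8.80, 18.2, 6.45 and 3.53 CPM, at 1.44, 0.138 and 0 CPM and at 11.6 and 11.0 CPM. Again the heart tube lay below both, with log2 fold changes of 4.03 ± 0.99 (adjusted p = 0.0113) and -4.32 ± 1.06 (adjusted p = 0.0121), the latter lost without pericardium 1 (0.0608) or pericardium 2 (0.0555).

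The genes HOXB4 and HOXB5 (ENSDARG00000013057) were called higher in proepicardium than heart tube but not in pericardium than heart tube, and neither was called between proepicardium and pericardium. HOXB5 stood at 11.2, 18.7, 35.3 and 22.3 CPM in the proepicardium, at 5.20, 0.277 and 0.408 CPM in the heart tube and at 4.31 and 4.35 CPM in the pericardium. All proepicardium libraries were above all others, with a log2 fold change of 3.44 ± 0.90 over the heart tube (adjusted p = 0.0159, and 0.0803 without the filter), and heart tube over pericardium gave -1.1 ± 0.95 (adjusted p = 0.449). HOXB4 (ENSDARG00000013533) stood at 1.86, 4.15, 9.46 and 2.54 CPM, at 0.885, 0 and 0.163 CPM and at 1.25 and 1.39 CPM. It too was highest in the proepicardium in all libraries, with a log2 fold change of 3.60 ± 1.02 over the heart tube (adjusted p = 0.0204) that was lost without proepicardium 3 (0.058) or heart tube 3 (0.0715). HOXD3, HOXC4, HOXA5 and the second HOXB5 row (ENSDARG00000054030) were not called between proepicardium and heart tube (adjusted p from 0.102 to 0.157).

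In groups 6 to 8, HOXC6 (ENSDARG00000070343) was absent from the reads of all heart tube libraries. It stood at 4.68, 11.0, 3.87 and 0.110 CPM in the proepicardium and at 11.9 and 22.2 CPM in the pericardium. Proepicardium 4 held almost none, and the pericardium libraries lay above all proepicardium libraries. Against 3 counts per heart tube library, the level was at least 23.8-fold higher in the proepicardium (adjusted p = 0.00736) and at least 82.8-fold higher in the pericardium (adjusted p = 0.0039). HOXC8 (ENSDARG00000070346) was likewise without reads in the heart tube, with 0.338, 0.0830, 0.798 and 0.110 CPM in the proepicardium and 0.301 and 1.56 CPM in the pericardium. Its call in the proepicardium (at least 1.61-fold, adjusted p = 0.0496) was lost without any single library other than proepicardium 3 (0.0551 to 0.101), without which it was not tested, and with DESeq2 size factors (0.0502) or limma-voom (0.147). Its call in the pericardium (at least 4.53-fold, adjusted p = 0.0252) was lost without heart tube 2 or 3 or either pericardium library (0.0503 to 0.196).

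Of the genes of letter B in groups 6 and 8, HOXB6 and HOXB8 were highest in proepicardium 3. HOXB6 (ENSDARG00000010630) stood at 4.85, 3.49, 15.5 and 4.20 CPM in the proepicardium, at 0.498, 0.138 and 0 CPM in the heart tube and at 0.802 and 1.91 CPM in the pericardium. The tissues did not overlap, and the log2 fold change over the heart tube was 4.90 ± 0.97 (adjusted p = 0.00309). HOXB8 (ENSDARG00000056027) stood at 5.81, 3.15, 17.1 and 3.42 CPM, at 1.60, 0.761 and 0.163 CPM and at 0.702 and 0.869 CPM. The proepicardium again lay above the other tissues in all libraries, with a log2 fold change of 3.09 ± 0.83 over the heart tube (adjusted p = 0.0155) that was lost without proepicardium 3 (0.0529) or heart tube 2 (0.057). HOXB7 (ENSDARG00000056030), the only row of group 7, stood at 0.442 to 1.78 CPM in the proepicardium, with heart tube levels of 0.0815 to 0.346 CPM, and was not called (adjusted p = 0.111).

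Genes of groups 9 to 13, known from the patterning of the trunk and of limbs and fins, were nearly without reads in the heart tube and several differed widely between proepicardium libraries. HOXD10 (ENSDARG00000057859) stood at 3.44, 3.57, 0.368 and 0.110 CPM in the proepicardium, at 0 in the heart tube and at 5.22 and 5.82 CPM in the pericardium. Proepicardium 1 and 2 were close to the pericardium, while proepicardium 3 and 4 were close to the floor. Against 3 counts per heart tube library it was at least 9.09-fold higher in the proepicardium (adjusted p = 0.01) and at least 26.8-fold higher in the pericardium (adjusted p = 0.00529). hoxa10b (ENSDARG00000031337) stood at 4.40, 3.32, 1.17 and 0.442 CPM, at 0 and at 5.62 and 3.48 CPM. It was the only gene of the block above the floor in all 4 proepicardium libraries, at least 11.3-fold above the heart tube (adjusted p = 0.00261), beside at least 22.1-fold in the pericardium (adjusted p = 0.00202).

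HOXD9, hoxa13b and HOXC9 were split within the proepicardium in the same way. HOXD9 (ENSDARG00000059274) stood at 2.82, 4.40, 1.35 and 0 CPM in the proepicardium, at 0 in the heart tube and at 2.81 and 6.95 CPM in the pericardium. The proepicardium stood at least 10.4-fold above the heart tube (adjusted p = 0.0123, and 0.0918 with limma-voom), although proepicardium 4 had no read, and the pericardium at least 23.7-fold above it (adjusted p = 0.00823). hoxa13b (ENSDARG00000036254), a gene of the distal fin and hindgut in vertebrates, stood at 1.35, 4.56, 0.491 and 0.331 CPM, at 0 and at 6.07 and 2.96 CPM. It was at least 8.18-fold higher in the proepicardium (adjusted p = 0.00732) and at least 21.9-fold higher in the pericardium (adjusted p = 0.00398). HOXC9 (ENSDARG00000092809), with 5.58, 6.22, 0.246 and 0 CPM, then 0.608, 0 and 0 CPM, then 6.52 and 10.6 CPM, was not called in either comparison (adjusted p = 0.114 and 0.0547).

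The remaining called genes of this block rested on few reads. hoxa9b (ENSDARG00000056819) had 0.620, 0.664, 0 and 1.55 CPM in the proepicardium, none in the heart tube and 0.301 and 1.39 CPM in the pericardium. Its calls (at least 3.44-fold and adjusted p = 0.0409 in the proepicardium, at least 4.11-fold and adjusted p = 0.0445 in the pericardium) were lost without any single library other than proepicardium 3, with adjusted p from 0.0555 to 0.0854 in the first and 0.0548 to 0.223 in the second comparison, and the first also with limma-voom (0.106). HOXD11 (ENSDARG00000059267) had 0.395, 1.49, 0 and 0.110 CPM, then none, then 0.652 and 1.22 CPM. It was called in the pericardium alone (at least 4.54-fold, adjusted p = 0.0445), and adjusted p was 0.052 to 0.153 without proepicardium 1 or 4 or without any single heart tube or pericardium library. In group 12 the row with the most reads, HOXC12 (ENSDARG00000103133), reached at most 0.245 CPM in any library.

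The spread between libraries of a tissue moved with the epidermal transcripts in some blocks and not in others. In the heart tube, library 1 had the most epidermal signal (6351 CPM against 192.3 and 244.5 CPM) and the largest sum of groups 1 to 5 (51.9 CPM against 11.3 and 19.6 CPM). In the proepicardium, library 3 had the least epidermal signal (11617 CPM) and the largest sum of groups 1 to 5 (328.6 CPM). The sum of groups 9 to 13 was largest in both pericardium libraries and in proepicardium 1 and 2, which also held the most epidermal signal. Proepicardium 4, however, held more epidermal signal than proepicardium 3 (28827 against 11617 CPM) but a smaller sum of groups 9 to 13 (2.87 against 8.54 CPM). Heart tube 1 and 3 had similar sums of groups 9 to 13 (1.16 and 1.06 CPM) at 6351 and 244.5 CPM of epidermal signal. Of the 8 epidermal genes, 6 were called higher in proepicardium, and 7 in pericardium, than in the heart tube, beside 16.8% and 16.1% of all genes tested. The part of the epidermal genes in the Hox results was not tested. The number of genes called between proepicardium and heart tube was 27 without heart tube 1 and 21 without proepicardium 3.

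Other neighbouring tissues were examined through their marker genes. Neural genes (8 with a row), in whose tissue the low Hox groups are expressed, summed to 44.4, 41.8, 69.8 and 97.3 CPM in the proepicardium, 23.2 to 44.8 CPM in the heart tube and 33.7 to 35.7 CPM in the pericardium. Of 6 tested, 2 (sox2 and sox3) were called higher in proepicardium than heart tube, beside 16.8% of all genes tested. The log2 fold change was below 0 for elavl3 (-1.02), elavl4 (-0.64) and neurod1 (-0.10), without a call. For sox19a it was above 0 (3.28 ± 1.14, adjusted p = 0.0565), also without a call. elavl3 and elavl4 were called higher in heart tube than pericardium. Pectoral fin genes (7 with a row), in whose tissue groups 9 to 13 are expressed, summed to 20.2 to 81.4 CPM in the proepicardium, 122.3 to 135 CPM in the heart tube and 21.4 to 30.3 CPM in the pericardium. Most of the heart tube sum came from tbx5a and sall4, which are also genes of the heart, and tbx5a was lower in the proepicardium (log2 fold change over the heart tube -3.11 ± 0.52, adjusted p = 0.00117). prdm1a was higher in the proepicardium (3.70 ± 0.55, adjusted p = 0.00056) and in the pericardium than in the heart tube, and the other 5 fin genes were not called between proepicardium and heart tube. Foregut genes (5 with a row) summed to 50.5 to 89.8 CPM, 2.69 to 7.35 CPM and 52.0 to 52.8 CPM. Of these 5, all tested, 4 were called higher in proepicardium, and 4 in pericardium, than in the heart tube. The shares over all genes tested were 16.8% and 16.1%, and sox17 was called in neither comparison. The kidney tubule gene pax8 had no read in any library, and the 3 kidney tubule genes with a row summed to at most 1.64 CPM. The part of these tissues in the Hox results was not tested.

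**Figure D3:**
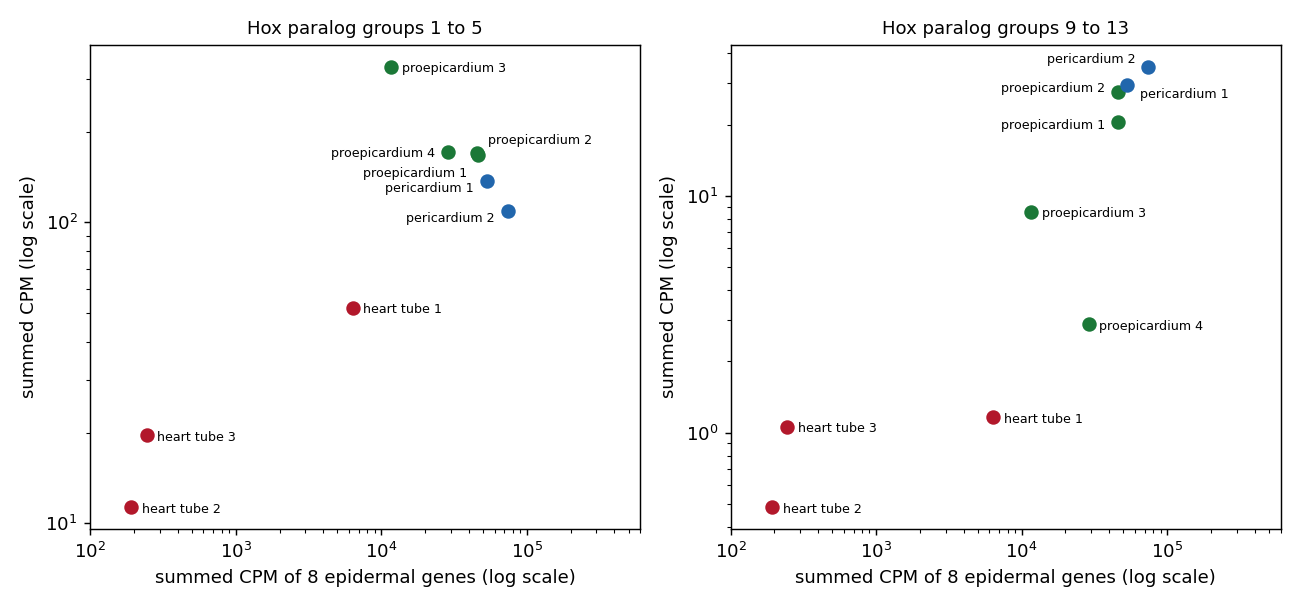
Summed CPM of Hox paralog groups 1 to 5 (left) and 9 to 13 (right) against the summed CPM of 8 epidermal genes, both on log scales, with a point for each of the 9 libraries. Proepicardium 3 combines 328.6 CPM of groups 1 to 5 with 11617 CPM of epidermal genes, and for groups 9 to 13 the 2 pericardium libraries lie at the upper right with 29.4 and 35.1 CPM.

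Between proepicardium and pericardium, no gene of the 59 was called with edgeR, where 0% of the 17003 genes tested were called. An unadjusted p under 0.05 was found for 10 of the 59 genes, beside 4.91% of all genes tested. limma-voom and the fit without a filter, which called 0.0331% of all its genes, also called none of the 59, while DESeq2 called 3, each higher in the proepicardium, beside 0.654% of the genes it tested. These were meis3 (adjusted p = 0.00912), meis2b (adjusted p = 0.03) and HOXB8 (adjusted p = 0.0417). The lowest proepicardium library exceeded the higher pericardium library in 13 genes, beside 7.65% of all genes tested, and the reverse held in 6 genes, of which 3 passed the filter, beside 7.75%.

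The direction of the means differed along the paralog groups, although no single gene was called. Over every gene, tested or not, the mean CPM was larger in the proepicardium for 14 of 17 Hox genes in groups 1 to 5, for 4 of 8 in groups 6 to 8 and for 5 of 23 in groups 9 to 13. In groups 9 to 13 it was larger in the pericardium for 15 genes, and 3 had no reads in either tissue. The 7 genes of that block that were tested all had the larger mean in the pericardium, and the 5 with the larger mean in the proepicardium did not pass the filter. The smallest p-values among Hox genes belonged to HOXB8 (log2 fold change 3.23 ± 1.00, edgeR adjusted p = 0.874), to the HOXB5 row ENSDARG00000054030 (4.02 ± 1.42, adjusted p = 0.946) and to HOXA5 (adjusted p = 0.954). That HOXB5 row stood at 4.06, 3.07, 12.1 and 6.74 CPM in the proepicardium, at 3.87, 0.484 and 0 CPM in the heart tube and at 0.502 and 0.261 CPM in the pericardium. HOXA5 (ENSDARG00000102501) had no read in the pericardium or in proepicardium 1, and 0.498, 2.03 and 1.33 CPM in proepicardium 2 to 4.

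Sorted by cluster letter, with a and b copies pooled, B had the largest ratio of the 4 letters for proepicardium over pericardium. Its 15 genes summed to 78.9, 68.4, 205.5 and 104.5 CPM in the proepicardium, to 36.4, 10.2 and 16.1 CPM in the heart tube and to 43.1 and 29.1 CPM in the pericardium, a ratio of 3.16. In 7 of the 15 genes every proepicardium library exceeded every pericardium library, beside 7.65% of all genes tested, and the reverse held in 1. The mean was larger in the proepicardium in 12 of the 15. The C genes summed to 35.7, 63.7, 30.6 and 14.6 CPM in the proepicardium and to 47.4 and 71.6 CPM in the pericardium, a ratio of 0.607. The ratio was 1.75 for the A genes and 0.811 for the D genes. Within groups 3, 5, 6 and 8 the log2 fold change was above 0 for the tested B genes and below 0 for the tested C gene. It was 1.59 ± 0.67 for HOXB3 and -0.53 ± 0.70 for hoxc3a, 2.39 ± 0.97 for HOXB6 and -1.79 ± 0.99 for HOXC6. In groups 1 and 4 the tested genes of both letters were above 0, with 0.36 ± 0.92 for hoxc1a and 0.82 ± 1.22 for HOXC4. None of these was called, and no difference between letters was tested. No tested gene of groups 9 to 13 carried letter B, so the directions by letter and by paralog group are not independent of each other.

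**Figure D4:**
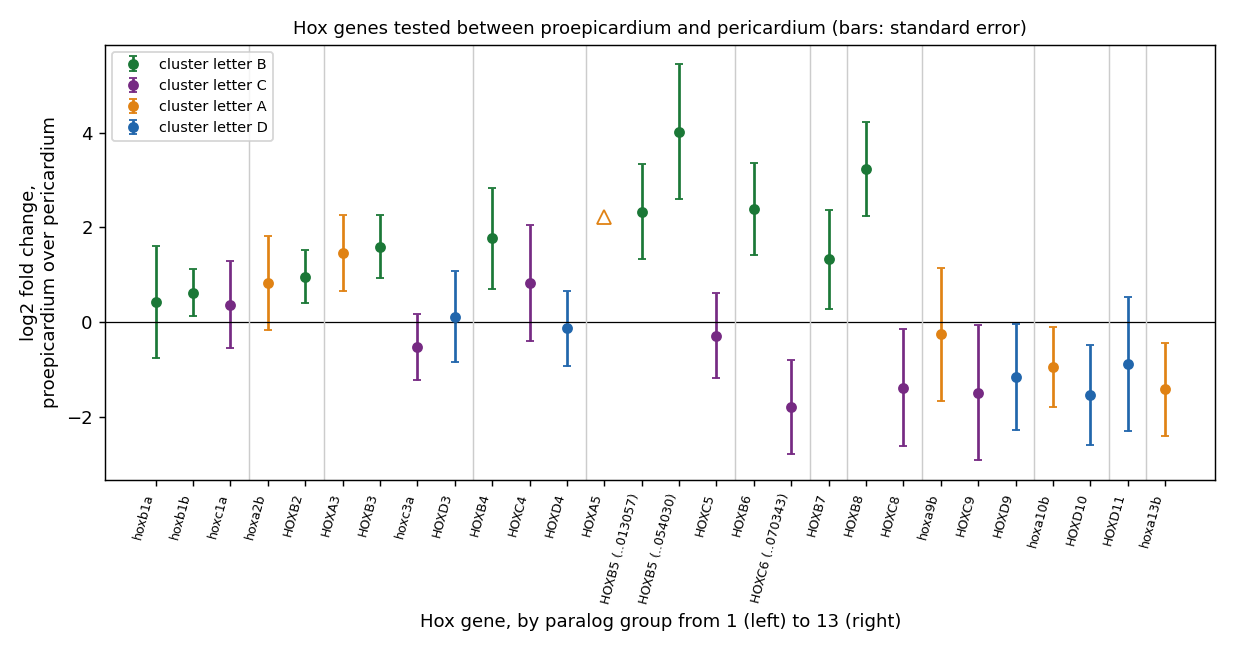
Log2 fold change of proepicardium over pericardium (points) with its standard error (bars) for 28 of the 29 Hox genes that were tested, in order of paralog group from 1 to 13 and coloured by cluster letter. The triangle marks HOXA5, which had no read in the pericardium, at its bound of 4.68-fold. The 7 tested values of groups 9 to 13, none of them of letter B, lie below 0, those of cluster letter B lie above 0, and no gene passed the edgeR test.

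Meis genes were detected in all tissues, and 3 of 5 were called higher in proepicardium than heart tube, beside 16.8% of all genes tested. meis1a (ENSDARG00000002937) stood at 29.0, 51.4, 55.3 and 34.9 CPM in the proepicardium, at 3.93, 5.74 and 7.58 CPM in the heart tube and at 40.7 and 33.4 CPM in the pericardium. The heart tube lay far below both other tissues, with log2 fold changes of 2.89 ± 0.36 for proepicardium over heart tube (adjusted p = 0.000189) and -2.69 ± 0.39 for heart tube over pericardium (adjusted p = 0.000594). Its paralog MEIS1 (ENSDARG00000012078) was present throughout, at 90.1, 133.5, 101 and 122.5 CPM, at 43.6, 93.4 and 80.0 CPM and at 134.3 and 126.2 CPM. Heart tube 2 overlapped with the proepicardium, and MEIS1 was not called in either comparison with the heart tube (log2 fold change 0.63 ± 0.32 with adjusted p = 0.161, and -0.85 ± 0.37 with adjusted p = 0.112).

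meis3 (ENSDARG00000002795), a partner of Hox group 1 and Pbx proteins in the zebrafish hindbrain, stood at 13.1, 24.0, 69.3 and 26.3 CPM in the proepicardium, at 1.33, 2.77 and 4.49 CPM in the heart tube and at 4.71 and 4.95 CPM in the pericardium. All proepicardium libraries exceeded all others. The log2 fold change was 3.55 ± 0.62 over the heart tube (adjusted p = 0.00157) and 2.78 ± 0.70 over the pericardium, the smallest p of the 59 genes in that comparison but not past the threshold in edgeR (adjusted p = 0.674, against 0.00912 in DESeq2). MEIS2 (ENSDARG00000098240) stood at 17.4, 19.5, 31.1 and 32.4 CPM, at 12.5, 3.60 and 6.03 CPM and at 18.6 and 13.3 CPM. The heart tube was lowest, with a log2 fold change of 1.76 ± 0.44 for proepicardium over heart tube (adjusted p = 0.0115, and 0.0529 without heart tube 2).

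meis2b (ENSDARG00000077840), which marks a part of the atrium in zebrafish, was the only gene of the 59 called higher in the heart tube than in another tissue. It stood at 5.36, 7.47, 28.1 and 17.8 CPM in the proepicardium, at 25.9, 15.3 and 23.8 CPM in the heart tube and at 2.86 and 2.43 CPM in the pericardium. The pericardium lay below all other libraries, and the proepicardium overlapped with the heart tube. The log2 fold change of heart tube over pericardium was 3.03 ± 0.70 (adjusted p = 0.00764), lost without pericardium 1 (0.0533) or pericardium 2 (0.0736). Proepicardium over heart tube gave -0.56 ± 0.50 (adjusted p = 0.437), and proepicardium over pericardium 2.46 ± 0.66 (edgeR adjusted p = 0.69, DESeq2 adjusted p = 0.03).

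Among the Pbx genes, pbx4 had the most reads in every library. pbx4 (ENSDARG00000052150), the main early Pbx gene of zebrafish, stood at 783.2, 507.6, 1456 and 813.4 CPM in the proepicardium, at 316.3, 210.5 and 279.7 CPM in the heart tube and at 719.5 and 495.6 CPM in the pericardium. Both other tissues lay above the heart tube in every library. The log2 fold change was 1.73 ± 0.38 for proepicardium over heart tube (adjusted p = 0.00595) and -1.18 ± 0.43 for heart tube over pericardium, which was not past the threshold (adjusted p = 0.0621). pbx2 (ENSDARG00000019717) stood at 37.9, 61.2, 54.8 and 45.4 CPM, at 56.8, 30.8 and 50.4 CPM and at 58.9 and 44.9 CPM. Its tissues overlapped throughout, with log2 fold changes of 0.12 ± 0.30, -0.06 ± 0.34 and -0.17 ± 0.36 in the 3 comparisons (adjusted p from 0.777 to 0.988).

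The other Pbx genes varied mostly between libraries of the proepicardium. PBX3 (ENSDARG00000013615) stood at 8.68, 11.5, 52.1 and 56.4 CPM in the proepicardium, at 10.6, 11.8 and 4.32 CPM in the heart tube and at 15.5 and 9.65 CPM in the pericardium. Proepicardium 3 and 4 were several-fold above the other 7 libraries. The gene was not called between proepicardium and heart tube (log2 fold change 1.85 ± 0.69, adjusted p = 0.066), but was with DESeq2 (0.0207) and without proepicardium 1 (0.0251) or proepicardium 2 (0.045). pbx1a (ENSDARG00000100494) stood at 6.88, 7.47, 37.2 and 16.7 CPM, at 30.4, 14.7 and 13.2 CPM and at 6.47 and 3.65 CPM. Both pericardium libraries were below all others, without a call (heart tube over pericardium 1.93 ± 0.75, adjusted p = 0.0785). pbx1b (ENSDARG00000101131) stood at 0.507, 0.498, 4.24 and 3.20 CPM, at 2.93, 0.484 and 1.22 CPM and at 0.351 and 0.174 CPM and was not called, and pbx3a (ENSDARG00000089262) reached at most 0.773 CPM. In pbx1a, pbx1b, PBX3 and meis2b, proepicardium 3 and 4 lay above proepicardium 1 and 2, the reverse of their order in HOXC9, HOXD9, hoxa10b, HOXD10 and hoxa13b. Sums of 4 erythroid genes (728 and 452.8 CPM against 2300 and 2072 CPM) and of 5 skeletal muscle genes (336.5 and 192 CPM against 984.1 and 761.7 CPM) were likewise lower in proepicardium 1 and 2 than in 3 and 4, and their part in these genes was not tested.

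**Figure D5:**
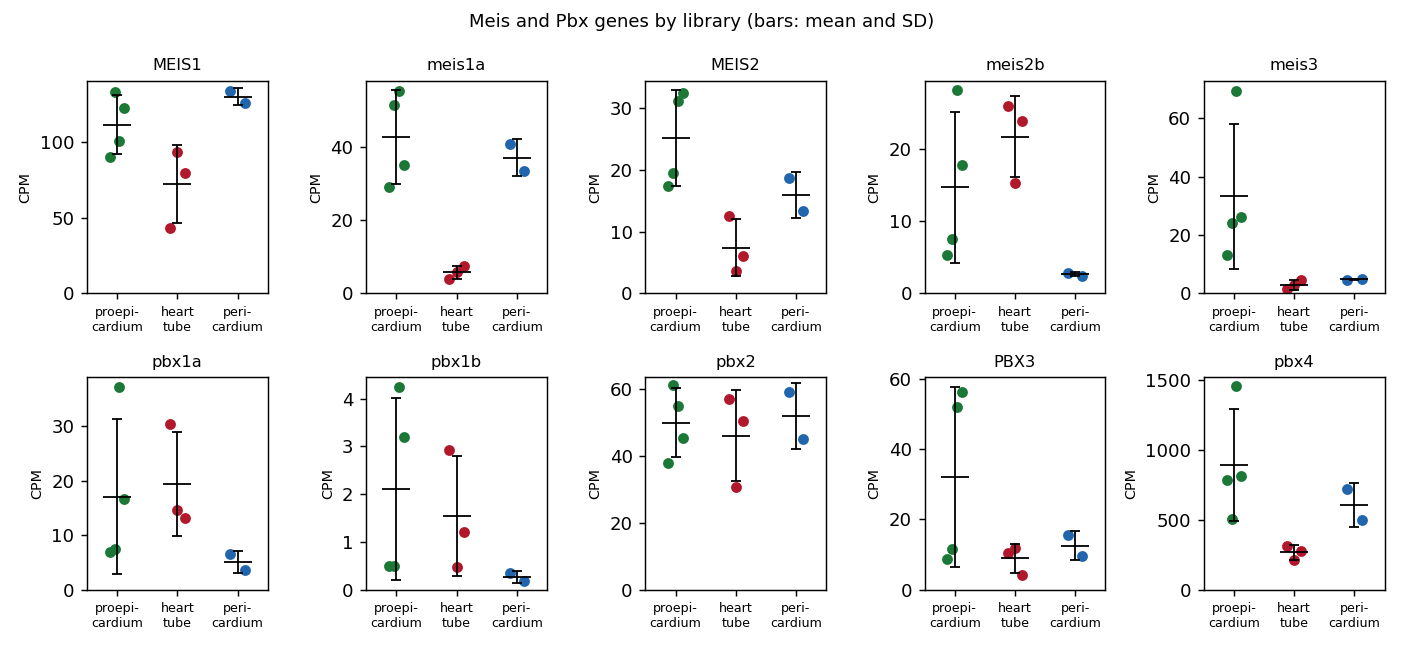
CPM of the 5 Meis genes and of the 5 Pbx genes other than pbx3a in each library (points) with mean and SD (bars) for proepicardium (n = 4), heart tube (n = 3) and pericardium (n = 2). The heart tube points of meis1a, at 3.93 to 7.58 CPM, lie below all points of the other tissues, and PBX3 splits the proepicardium into 8.68 and 11.5 CPM against 52.1 and 56.4 CPM.

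Genes that act with or upstream of Hox genes were taken as lists. Of 24 listed genes of the retinoic acid pathway, which switches on the low Hox groups in vertebrate embryos, 12 had a row and 11 were tested. Proepicardium over heart tube, 4 of the 11 tested were called higher, beside 16.8% of all genes tested, and none was called lower. They were the retinoic acid degrading enzymes cyp26a1 (log2 fold change 6.54 ± 0.73, adjusted p = 0.000104) and cyp26c1 (3.36 ± 0.99, adjusted p = 0.0254), the receptor gene raraa (1.23 ± 0.41, adjusted p = 0.04) and the retinol carrier gene rbp4 (8.64 ± 1.25, adjusted p = 0.000963). The gene of the synthesising enzyme, aldh1a2, stood at 11.2, 6.89, 30.9 and 26.4 CPM in the proepicardium, at 13.1, 100.5 and 45.4 CPM in the heart tube and at 6.57 and 4.87 CPM in the pericardium. It was higher in the heart tube than in the pericardium (log2 fold change 3.21 ± 0.90, adjusted p = 0.0229), whereas cyp26a1, rbp4 and the receptor gene rxrgb were higher in the pericardium.

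Of 17 other listed TALE homeobox genes, 9 had a row and 8 were tested. Over all genes tested, 16.8% were called higher and 12.7% lower in proepicardium than heart tube. The share called higher in heart tube than pericardium was 11.0%, and the share called higher in pericardium than heart tube was 16.1%. The Iroquois genes irx5b (3.67 ± 0.95, adjusted p = 0.0132) and irx7 (4.60 ± 1.1, adjusted p = 0.00859) were higher in proepicardium than heart tube. irx2a (-2.72 ± 0.47, adjusted p = 0.00136), irx5a (-1.05 ± 0.30, adjusted p = 0.0209) and irx6a (-5.86 ± 1.24, adjusted p = 0.00447) were lower there, and all 3 were also higher in the heart tube than in the pericardium. irx7 was also higher in the pericardium than in the heart tube (heart tube over pericardium -3.78 ± 1.15, adjusted p = 0.0293). Of 21 listed regulators and partners of Hox genes, 17 had a row and 11 were tested. Only tshz2 was called, higher in proepicardium than heart tube (2.39 ± 0.83, adjusted p = 0.0485), beside 16.8% of all genes tested. cdx4, evx1 and egr2b had no read in any library. No gene of the 3 lists was called between proepicardium and pericardium with edgeR.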

How the data were processed

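The deposited table holds counts of reads per Ensembl gene, which the authors did not normalise. Per the submitters' processing notes, the processing named GRCz11 (danRer11), CASAVA 1.8, fastp, STAR, featureCounts and DESeq2, with no role or order given. The kit does not mark strand, so reads of overlapping and antisense genes cannot be told apart. Construct rows (16, at most 0.0309% of a library) were left out. Gene counts ran from 8882853 to 19397355 per library. The deposited normalised table was not used here.

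Groups came from the sample labels. A quasi-likelihood model (edgeR 4.0.16, R 4.3.3) with tissue as its single factor was fitted to all 9 libraries. Low genes were removed by filterByExpr at its settings of 10 (count) and 15 (total), factors came from TMM, and glmQLFit was robust. Genes with a Benjamini-Hochberg adjusted p under 0.05 over the 17003 genes tested were called. A log2 fold change is given with its standard error, CPM with SD. A fold against a tissue without reads was set against 3 counts per library, and its bound covers the level of that tissue alone. The test was checked on simulated data in which only genes well above the floor were changed, so the check does not cover genes of few reads. Alternatives were DESeq2 size factors, no filter, the DESeq2 1.42.0 Wald test, quality-weighted voom from limma 3.58.1 (limma-voom), the replicate number as a block, and leaving out each library.

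Symbols were known for 29201 of 32520 identifiers. RefSeq (GRCz12tu) served for names and for which genes overlap. Named with values are the genes called in any comparison, every Meis and Pbx gene and the gene with the highest mean CPM in each Hox paralog group. The result for 1 called gene is not reported here and the gene is not drawn, but it is part of the counts and sums. Other genes with values were chosen after they were seen. The genes and lists were chosen with earlier results of these data known.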

Additional observations from a re-analysis of the deposited data

Results flagged for a closer look

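Outlying libraries were looked for in the proepicardium, the only tissue with 4 libraries, with Dixon's test at 95% over 55 values, and 4 were found, where chance gives about 1 in 20. Proepicardium 3 had the highest sum of Hox paralog groups 1 to 5, at 328.6 CPM with the nearest library at 171.2 CPM. It also had the highest HOXB6 level, at 15.5 CPM with the nearest library at 4.85 CPM. Proepicardium 4 had the lowest HOXD4 level, at 13.1 CPM with the nearest library at 35.7 CPM. It also had the highest pbx3a level, at 0.773 CPM with the nearest library at 0.0614 CPM, which rests on 7 counts.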

How the results depend on the processing

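Between proepicardium and heart tube, the count of 25 genes ran from 20 to 27 when a library was left out and from 22 to 29 under the other alternatives, and 14 of the 25 were called under every alternative that tested them. Between proepicardium and pericardium, DESeq2 called 3 of the 59 genes and every other alternative 0. Over all genes the count there was 9 without a filter, 99 with DESeq2, 7 with limma-voom and 0 otherwise. Between heart tube and pericardium, the count of 17 was 27 with limma-voom and ran from 10 to 21 when a library was left out, and 9 of the 17 were called throughout. Over all genes, the count of 4613 was 6926 with limma-voom and ran from 2231 to 4750 when a library was left out. Leaving out a library leaves fewer samples by construction, and the cause of the other shifts was not tested. No result reversed its direction, and the other scaling moved the median log2 fold change of all genes by at most 0.028.

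The replicate numbers were not taken as pairs: deviations of same-numbered libraries correlated from -0.0179 to 0.129, and not every pair was over 0.1. With the replicate number as a block, 22, 0 and 15 of the 59 genes were called between proepicardium and heart tube, proepicardium and pericardium, and heart tube and pericardium. Over all genes the counts were 4103, 0 and 3658. Among the genes named, adjusted p was above 0.05 for hoxb1a (0.0607), HOXB4 (0.0514), HOXC8 (0.104) and hoxa9b (0.0779) between proepicardium and heart tube, and for hoxb1a (0.125), hoxc1a (0.0834), HOXC8 (0.0633), hoxa9b (0.0817) and HOXD11 (0.0662) between heart tube and pericardium. The pericardium has 2 libraries, and genes under about 1 CPM rest on a few reads.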
